A study of Mus musculus with 20 samples.

Results

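Collagen VI RNA was followed through 3 cell populations of mouse leg muscle. The genes described are Col6a1, Col6a2, Col6a3, Col6a5 and Col6a6, 5 of the 24393 genes in the count table. They were taken by symbol, and earlier results of these data were known when they were chosen. The table held 20 RNA-seq libraries from quadriceps, tibialis anterior and gastrocnemius muscle taken as 1 source, in 6 groups: 4 DKO and 4 WT libraries of FAP, 4 and 4 of Misc, and 2 and 2 of SMP. FAP is the usual abbreviation of fibro/adipogenic progenitor, a mesenchymal cell of the muscle interstitium. SMP commonly means skeletal muscle progenitor, the satellite cell lineage from which fibres are rebuilt. Misc is the submitters' own name for the third population, and the design text lists FB in its place without tying the names together. WT is wild type. DKO is a double knockout whose missing genes the labels do not name. They give no strain, age or sorting scheme, and they do not say whether a library came from 1 animal. The p-values therefore measure the spread between libraries, which may be partly technical.

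As background, collagen VI is a beaded microfibril that surrounds cells and links the basement membrane to the interstitial matrix. Its building block joins the α1 chain (Col6a1), the α2 chain (Col6a2) and a long chain, classically α3 (Col6a3). The chains α5 (Col6a5) and α6 (Col6a6) resemble α3 and can take its place, as can α4 (Col6a4). In muscle, fibroblasts of the interstitium are the known source of collagen VI, and human mutations in the genes for α1, α2 or α3 cause Bethlem myopathy and Ullrich congenital muscular dystrophy.

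All 5 genes lie on the minus strand of mm10 (GRCm38.p6), and no other RefSeq gene overlaps them. Col6a1 (Entrez Gene 12833) spans chr10:76708792-76726044 and Col6a2 (12834) spans chr10:76595756-76623630, with 85.2 kb and 2 non-coding genes between them. Col6a3 (12835) spans chr1:90766860-90844001. Col6a6 (245026) at chr9:105689417-105828246 and Col6a5 (665033) at chr9:105856070-105962463 are direct neighbours, 27.8 kb apart with 0 genes between. Col6a4 (68553) follows Col6a5 after 27.9 kb. It had 8 counts in all, spread over 7 of the 20 libraries with at most 2 in any, and did not pass the filter on low counts.

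The bases before the annotated RefSeq starts are shown because the neighbours Col6a5 and Col6a6 were both lower in DKO than in WT in Misc. Col6a1, Col6a2 and Col6a3 did not pass the test in the same comparison. In FAP neither neighbour passed, and in SMP the log2 fold changes were 1.90 for Col6a6 and −0.31 for Col6a5. Up to 250 bases were taken from RefSeq (GRCm38.p6), minus strand, written 5′ to 3′, and bases inside a GENCODE M21 exon or the end of the RefSeq gene were left out. The windows are chr9:105828247-105828335 for Col6a6, chr9:105960644-105960893 for Col6a5, chr10:76726169-76726294 for Col6a1, chr10:76623631-76623880 for the outer start of Col6a2, and chr1:90844002-90844221 for Col6a3. The Col6a5 window lies outside every GENCODE exon but inside the longer span that RefSeq gives the gene. Capitals mark a GC box, GGGCGG, on either strand.
Col6a6: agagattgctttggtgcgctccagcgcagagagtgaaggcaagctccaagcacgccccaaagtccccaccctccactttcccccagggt
Col6a5: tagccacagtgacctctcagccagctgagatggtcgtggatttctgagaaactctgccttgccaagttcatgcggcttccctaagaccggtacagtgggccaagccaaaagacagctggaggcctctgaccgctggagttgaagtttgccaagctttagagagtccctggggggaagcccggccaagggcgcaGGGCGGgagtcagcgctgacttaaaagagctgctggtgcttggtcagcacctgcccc
Col6a1: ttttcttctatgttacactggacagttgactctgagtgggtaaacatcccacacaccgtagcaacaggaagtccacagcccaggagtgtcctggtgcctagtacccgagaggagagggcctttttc
Col6a2: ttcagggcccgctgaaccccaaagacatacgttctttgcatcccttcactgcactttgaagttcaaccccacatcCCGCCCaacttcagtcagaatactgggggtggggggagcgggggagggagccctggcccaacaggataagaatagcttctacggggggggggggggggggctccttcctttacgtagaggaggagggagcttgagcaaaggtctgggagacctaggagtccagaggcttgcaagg
Col6a3: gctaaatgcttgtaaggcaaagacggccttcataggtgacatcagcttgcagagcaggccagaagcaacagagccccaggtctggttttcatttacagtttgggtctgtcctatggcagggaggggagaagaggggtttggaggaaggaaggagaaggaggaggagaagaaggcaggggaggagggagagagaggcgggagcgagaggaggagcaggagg
Over the whole 250 bases, GGGCGG began 57 bases before the start in Col6a5 and 142 and 91 bases before it in Col6a6. In Col6a2 it began 175 bases before the outer start. Col6a2 also has an inner start, with 3 matches 67, 15 and 11 bases before it, in bases not shown above. The 2 matches of Col6a6 fall in bases left out above. No match was found in Col6a1 or Col6a3, and 32.7% of 32851 RefSeq promoter windows of this length hold the motif. TGANTCA, the AP-1 motif, matched once, 90 bases before the start of Col6a1 in bases left out above, and 6.75% of windows hold it. TATAAA, held by 12.4% of windows, and CCAAT, held by 33.8%, matched none of the 5 genes. The motifs were searched on both strands. The matches 15 and 11 bases before the inner start of Col6a2 overlapped each other, and no other matches here did. A match describes letters only.

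Library totals ran from 5.83 to 17.73 M counts, and every library held at least 10 counts of each chain. As background knowledge of the study, DKO was read as loss of desmin (Des) and nesprin 1 (Syne1). Des fell with DKO in each population, with log2 fold changes of −1.81 in FAP, −1.25 in Misc and −1.45 in SMP (edgeR adjusted p = 2.7e-07, 0.00094 and 1.6e-05). Syne1 changed by −0.31 in FAP (adjusted p = 0.11), −0.69 in Misc (0.00028) and −1.03 in SMP (0.00032). The deleted parts of these genes are not given in the labels. By their markers, the FAP libraries carried Pdgfra, Ly6a, Cd34, Dpp4 and Pi16, whose summed level was 3680 to 5398 CPM (counts scaled to the library total) against at most 1130 in the other libraries. Satellite cell markers such as Pax7 and Myf5 summed to 2013 to 2190 CPM in SMP and to at most 132 elsewhere. Misc carried tendon cell markers (Scx, Tnmd, Mkx, Kera, Chad and Fmod) at 21191 to 38859 CPM, against 368 to 2049 in the other libraries. The SMP DKO libraries correlated at r = 0.95 over genes in log2 CPM, the lowest of any pair within a group, where the other pairs reached 0.975 to 0.99.

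Collagen VI RNA made up 1.03% to 1.33% of all counts in FAP libraries, 0.869% to 1.13% in Misc and 0.129% to 0.26% in SMP. Per kilobase of the longest GENCODE transcript, the order was Col6a1, Col6a2, Col6a3, Col6a6 and Col6a5 in each of the 6 groups. In FAP WT the levels were 1062 ± 86.1 (SD, n = 4), 812 ± 93.2, 323 ± 42, 52.6 ± 3.74 and 8.2 ± 0.878 CPM per kilobase. In Misc WT they were 924 ± 13.4, 619 ± 11.3, 273 ± 28.3, 26.3 ± 4.33 and 2.75 ± 0.743 (SD, n = 4). The α1 and α2 chains thus led in RNA, and α3 exceeded α6 and α5 by a wide margin. In SMP WT the levels were 211 ± 5.54, 86.9 ± 4.66, 18.5 ± 0.958, 0.675 ± 0.207 and 0.526 ± 0.0094 (SD, n = 2). There, Col6a6 at 0.529 to 0.822 and Col6a5 at 0.519 to 0.532 CPM per kilobase overlapped and did not differ beyond their spread. The order held within each SMP DKO library too, though the group ranges ran wide, from 133 to 259 for Col6a1 and from 0.199 to 0.67 for Col6a5.

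**Figure D1:**
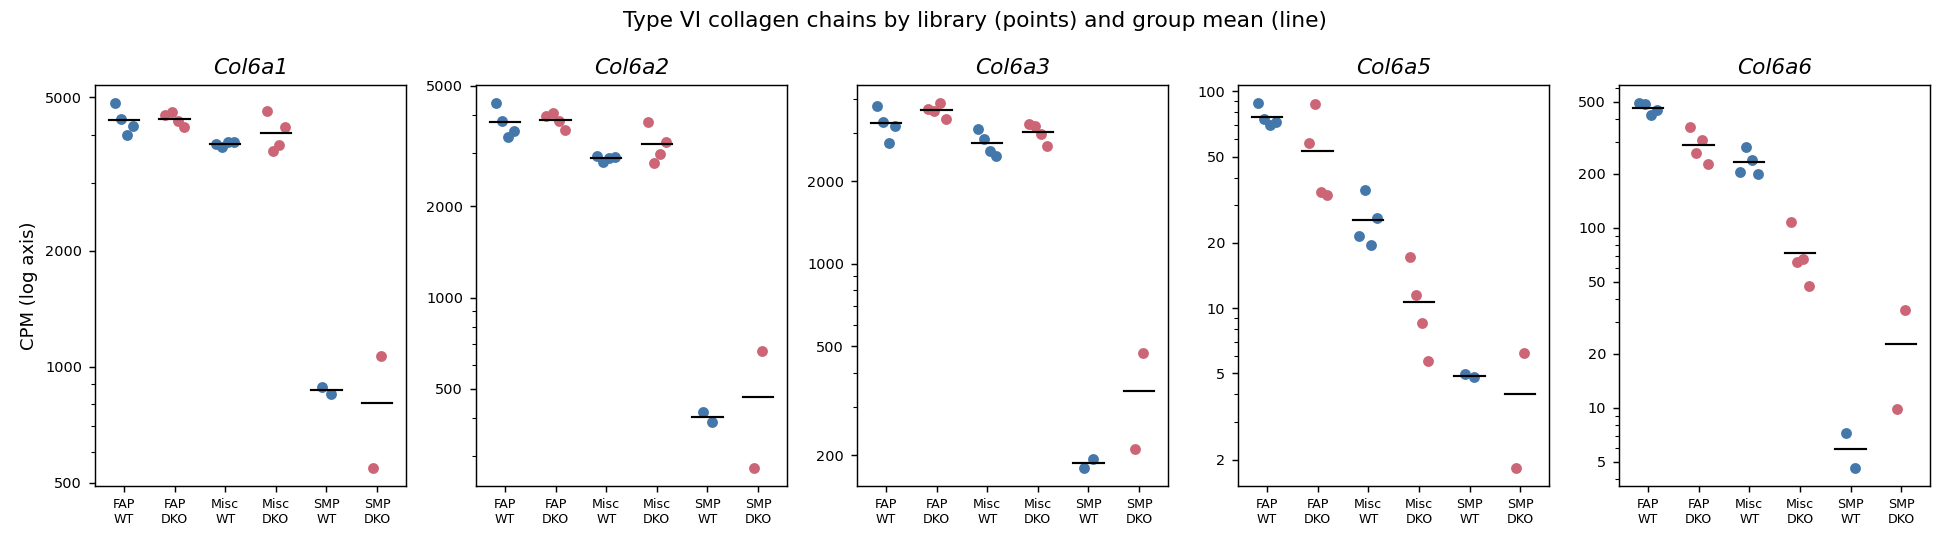
CPM of each chain (log axis, 1 panel a gene) in the 6 groups; points are libraries, blue for WT and red for DKO, and the line is the group mean. Col6a1, Col6a2 and Col6a3 are 0.12 to 0.39 higher on the log2 scale in FAP than in Misc. Col6a6 steps down from 422 to 492 CPM in FAP WT to 47.7 to 108 in Misc DKO.

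The comparison of DKO with WT asks whether loss of the genes changed collagen VI RNA in each population. In FAP, 0 of the 5 chains passed edgeR's test (adjusted p below 0.05 over 14179 genes), against 10.7% of all genes called. The change of largest size was that of the α6 chain. Col6a6 was at 363, 260, 307 and 227 CPM in the DKO libraries and at 492, 485, 422 and 449 in WT. All 4 DKO libraries lay under all 4 WT libraries, as 19.2% of all genes did in either direction. Its log2 fold change was −0.68 ± 0.28 (SE), with an edgeR adjusted p of 0.15. With only the FAP libraries in the fit, which tested 12466 genes, the value was −0.66 with adjusted p = 0.002. The cause of this change was not tested. Unadjusted, 1 chain (Col6a6) had p below 0.05, at 0.0293. Col6a5 was at 57.5, 87, 34.5 and 33.2 CPM in DKO and at 88.2, 74.3, 70.3 and 72 in WT. The DKO libraries spread over a wider range, and replicate 2 lay inside the WT range (log2 fold change −0.54 ± 0.32, edgeR adjusted p = 0.32).

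Col6a1, Col6a2 and Col6a3 did not pass the test in FAP. Col6a1 was at 4498, 4567, 4331 and 4179 CPM in DKO and at 4824, 4391, 3992 and 4209 in WT, and the groups overlapped. Col6a2 was at 3979, 4046, 3828 and 3576 CPM in DKO and at 4374, 3806, 3386 and 3544 in WT. Col6a3 was at 3692, 3629, 3867 and 3386 CPM in DKO and at 3791, 3301, 2756 and 3200 in WT. The log2 fold changes were 0.01 ± 0.14, 0.03 ± 0.17 and 0.16 ± 0.16 (SE), none past the test (edgeR adjusted p from 0.59 to 0.97). The summed level of the 5 progenitor markers in FAP was 3680 to 4637 CPM with DKO against 5083 to 5398 with WT. In bulk RNA, fewer cells of a type and less RNA per cell cannot be told apart, and the part of the marker difference in the Col6a6 values was not tested.

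In Misc, 2 of the 5 chains were lower in DKO and 0 higher, where 9.55% of all genes were lower and 9.15% higher. Both were the long chains that can stand in for α3. Col6a6 was at 108, 64.7, 67.4 and 47.7 CPM in DKO and at 204, 282, 238 and 200 in WT. Every DKO library was under every WT library, as 21.2% of all genes were separate in either direction, and the fall was 3.2-fold (log2 fold change −1.68 ± 0.29, edgeR adjusted p = 0.00076). The adjusted p ranged from 1.7e-06 to 0.0043 over 14 alternatives. Col6a5 was at 17.2, 11.5, 8.51 and 5.7 CPM in DKO and at 21.6, 35.1, 19.6 and 26.1 in WT, again with no overlap. It fell 2.38-fold (log2 fold change −1.25 ± 0.37, edgeR adjusted p = 0.027). This call was lost without DKO replicate 2, 3 or 4 or without WT replicate 2, with log2 fold changes of −1.29, −1.16, −1.07 and −1.08 and adjusted p = 0.058, 0.069, 0.07 and 0.075.

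Col6a1, Col6a2 and Col6a3 did not pass the test in Misc either. Col6a1 was at 4591, 3615, 3760 and 4191 CPM in DKO and at 3789, 3710, 3815 and 3836 in WT. Col6a2 was at 3790, 2769, 2970 and 3261 CPM in DKO and at 2921, 2802, 2888 and 2903 in WT. Col6a3 was at 3235, 3197, 2985 and 2705 CPM in DKO and at 3112, 2860, 2587 and 2475 in WT. For each of these genes the 4 WT libraries fell within or overlapped the DKO range, and the log2 fold changes were 0.09 ± 0.14, 0.15 ± 0.17 and 0.14 ± 0.16 (edgeR adjusted p from 0.59 to 0.69). The tendon marker sum in Misc was 21191 to 32665 CPM with DKO against 36355 to 38859 with WT, and the progenitor marker sum was 1028 to 1130 against 967 to 1099. Fmod made up most of the tendon sum, at 17786 to 27691 CPM with DKO against 29120 to 31694 with WT. Kera, Chad and Mkx were under their WT ranges too, whereas Tnmd overlapped and Scx averaged 118 CPM with DKO against 78.1 with WT. Members of the progenitor list went opposite ways. Pi16 was at 248 to 368 CPM with DKO against 28.9 to 61.4 with WT, but Pdgfra was at 291 to 400 against 411 to 485 and Dpp4 at 110 to 155 against 179 to 235. The part of these marker differences in the Col6a6 and Col6a5 values was not tested.

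**Figure D2:**
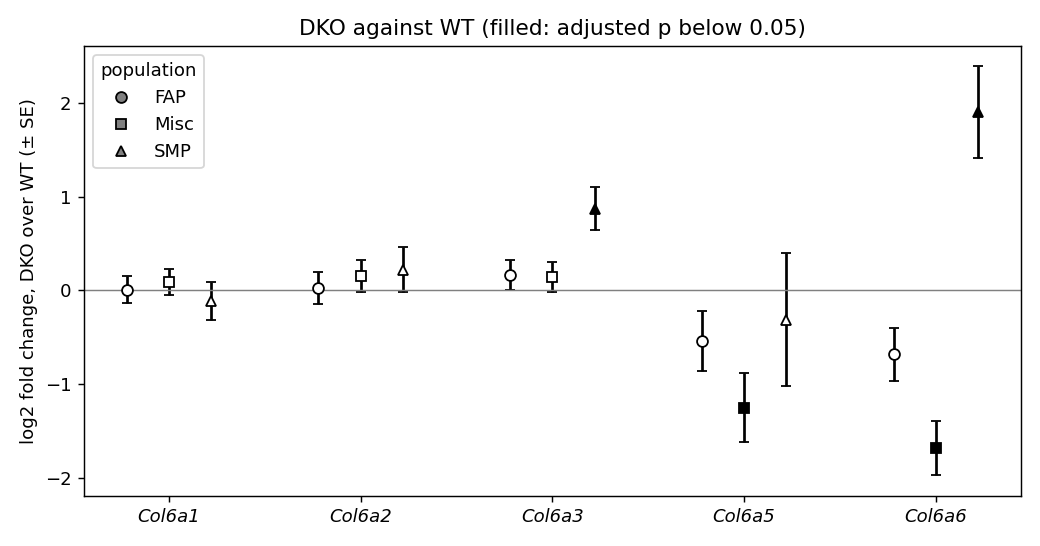
Log2 fold change of DKO over WT for each chain (± SE) in FAP (circles), Misc (squares) and SMP (triangles); filled symbols passed edgeR's test. Col6a1 and Col6a2 lie near 0 in all 3 populations, and Col6a6 runs from −1.68 in Misc to 1.90 in SMP.

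In SMP, 2 of the 5 chains were higher in DKO and 0 lower, where 11.8% of all genes were higher and 11.2% lower. Col6a6 was at 9.88 and 35.1 CPM in DKO and at 7.21 and 4.65 in WT. Replicate 2 of DKO stood far above the other 3 libraries. The log2 fold change was 1.90 ± 0.49 (edgeR adjusted p = 0.013), and without that library it was 0.72 with adjusted p = 0.33. Without WT replicate 2 it was 1.60 (adjusted p = 0.09), and with only the SMP libraries in the fit 1.89 (0.23). Col6a3 was at 210 and 474 CPM in DKO and at 180 and 194 in WT. Its groups did not overlap either, as for 55.7% of all genes with 2 libraries a group. The log2 fold change was 0.87 ± 0.23 (edgeR adjusted p = 0.0094), and 0.16 with adjusted p = 0.58 without DKO replicate 2. Without WT replicate 1 it was 0.81 (0.073), and with only the SMP libraries 0.85 (0.35). Both calls were thus lost without DKO replicate 2.

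The other chains followed the same split of the DKO libraries. Col6a1 was at 547 and 1062 CPM in SMP DKO and at 883 and 851 in WT. Col6a2 was at 275 and 665 CPM in DKO and at 420 and 389 in WT. Col6a5 was at 1.84 and 6.22 CPM in DKO and at 4.95 and 4.82 in WT. For all 3 genes the WT libraries lay between the DKO libraries, and the log2 fold changes were −0.11 ± 0.20, 0.22 ± 0.24 and −0.31 ± 0.71 (edgeR adjusted p = 0.73, 0.55 and 0.79). Each turned its sign with the library left out. Without DKO replicate 2, Col6a1 was lower in DKO at −0.67 (adjusted p = 0.0074) and Col6a2 at −0.57 (0.036). Without DKO replicate 1, Col6a2 was higher at 0.70 (0.0052) and Col6a1 at 0.28 (0.23). For Col6a5 the value was 0.33 without DKO replicate 1 (adjusted p = 0.81).

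Markers of other cells differed between the SMP DKO libraries as well. The progenitor marker sum was 145 CPM in replicate 1 and 619 in replicate 2, against 233 and 250 in WT. It was mostly Cd34, at 118 and 304 CPM against 204 to 213 in WT. Pdgfra was at 10.1 and 112 CPM against 9.32 to 10.4, and Ly6a at 3.43 and 78.8 against 6.93 to 8.11. Pi16 was at 7.12 and 101 CPM against 2.84 to 6.57, and Dpp4 at 5.8 and 23.9 against 8.43 to 13.3. Tendon markers summed to 666 and 2049 CPM, against 1857 and 1750 in WT. Endothelial markers were at 93.4 and 430 CPM, against 237 and 181. Muscle fibre markers were at 159 and 497 CPM, against 29.8 and 43.1. Satellite cell markers were at 2094 and 2013 CPM, against 2190 and 2167. Members of that list went opposite ways. Pax7 averaged 112 CPM with DKO against 266 with WT, Calcr 128 against 297 and Chrdl2 88.3 against 221. Myod1 averaged 345 against 136, Itga7 393 against 344 and Vcam1 672 against 585, while Myf5 and Cdh15 overlapped. Replicate 2 thus had the highest sums of the progenitor, tendon, endothelial and fibre lists and the highest level of all 5 chains, while its satellite cell sum was lowest. The part of these other cells in the chains' values was not tested.

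**Figure D3:**
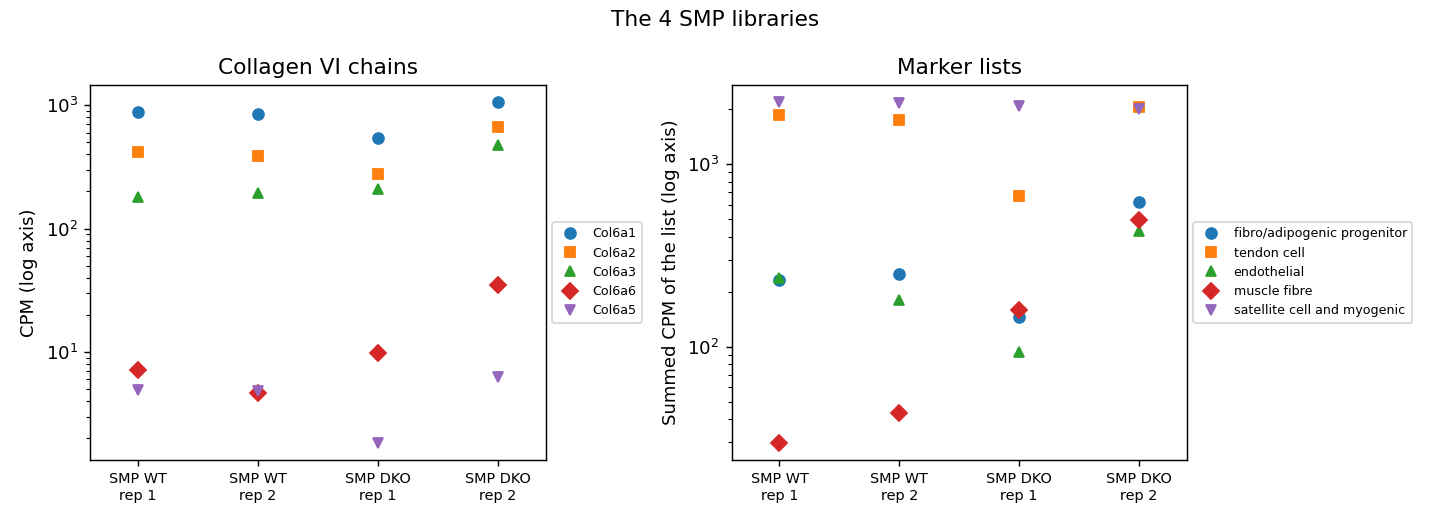
Left, CPM of the 5 chains in the 4 SMP libraries; right, summed CPM of 5 marker lists in the same libraries (both log axes). SMP DKO replicate 2 is highest for each chain and for every list shown except the satellite cell list.

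The difference of the DKO effect between populations was tested directly. Between FAP and Misc, 0 of 5 chains passed, against 2.79% of all genes. For Col6a6 the effect in FAP exceeded that in Misc by 1.00 ± 0.40 on the log2 scale (edgeR adjusted p = 0.27, unadjusted p = 0.0239), with adjusted p = 0.042 when only these groups entered the fit. So a larger fall in Misc than in FAP was not shown. Between FAP and SMP, 1 of 5 chains passed with a lower effect in FAP (5.42% of all genes). It was Col6a6, at −2.58 ± 0.57 (adjusted p = 0.0098), and −3.22 without SMP DKO replicate 1. With libraries blocked by number within genotype the value was −2.45 (adjusted p = 0.062), although SMP numbers are not known to match those of FAP. Without SMP DKO replicate 2 it was −1.39 (0.12), and without SMP WT replicate 2 it was −2.28 (0.056). Between Misc and SMP, 1 of 5 chains passed with a lower effect in Misc (4.34% of all genes), again Col6a6, at −3.58 ± 0.58 (adjusted p = 0.00099). It kept an adjusted p of at most 0.02 over 19 alternatives, with values from −4.23 to −2.40. The last 2 tests share the SMP libraries.

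Across populations of the same genotype, every chain was higher in FAP than in SMP. In WT all 5 passed, where 31.1% of all genes were higher, with log2 differences of 2.33 ± 0.19 for Col6a1, 3.22 ± 0.25 for Col6a2, 4.13 ± 0.25 for Col6a3, 3.96 ± 0.52 for Col6a5 and 6.28 ± 0.51 for Col6a6. Col6a6 had a 77.5-fold difference and Col6a1 a 5.02-fold difference. In DKO all 5 passed as well (29.2% of genes higher), and the log2 difference of Col6a6 was 3.70 ± 0.44. It was 3.06 without SMP DKO replicate 1 and 4.89 without replicate 2, and that of Col6a5, 3.73, was 3.09 and 4.84. Without replicate 2, Col6a2 went from 3.04 to 3.83 and Col6a3 from 3.41 to 4.13. All of these kept their call. Misc exceeded SMP in all 5 chains in WT (30.6% of genes) with log2 differences from 2.13 to 5.27. In DKO it did so in 4 of 5 (29.8% of genes). The exception was Col6a5 at 1.44 ± 0.61 (edgeR adjusted p = 0.052). It passed with the DESeq2 Wald test (1.37, adjusted p = 0.012) and, by edgeR, without Misc DKO replicate 4 (1.66, 0.026). It also passed by edgeR with blocks by number (1.72, adjusted p = 0.0071) or by number within genotype (1.91, 0.0019). SMP numbers are not known to match those of Misc. Most of the 13 alternatives for Col6a5 here did not pass. The Col6a5 value was 2.55 without SMP DKO replicate 2 and 0.80 without replicate 1. Col6a6 in that comparison was 1.69 ± 0.40 higher (adjusted p = 0.002), and its adjusted p was 0.078 with only the compared groups in the fit. Without SMP DKO replicate 1 it was 1.05 (adjusted p = 0.026) and without replicate 2 it was 2.88 (3.1e-05). Without replicate 2, Col6a2 went from 2.77 to 3.55 and Col6a3 from 3.15 to 3.86.

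Between FAP and Misc, the called differences were in the long chains Col6a5 and Col6a6. In WT, 2 of 5 chains were higher in FAP (19.3% of all genes), Col6a5 by 1.57 ± 0.33 (edgeR adjusted p = 0.0011) and Col6a6 by 1.00 ± 0.28 (adjusted p = 0.01) on the log2 scale. The same 2 were higher in DKO (16.0% of genes), Col6a5 by 2.29 ± 0.37 (adjusted p = 0.00014) and Col6a6 by 2.01 ± 0.30 (5.5e-05). That is 4.88-fold and 4.02-fold in DKO and 2.98-fold and 2-fold in WT. The other chains were 0.12 to 0.39 higher in FAP and did not pass. For Col6a1 and Col6a2 in WT and Col6a3 in DKO, the FAP and Misc libraries did not overlap. In either direction, 40.0% of all genes were separate in WT and 27.8% in DKO. Col6a2 in WT was nearest at 0.39 ± 0.17 (adjusted p = 0.072), with adjusted p = 0.0047 and a difference of 0.37 when only the compared groups were fitted. A p above the threshold does not show that these levels were equal.

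Ratios of chains within a library do not depend on how libraries are scaled. They were taken as log2((count of chain A + 2)/(count of chain B + 2)) and compared by exact two-sided permutation tests of 4 against 4 libraries, where the smallest p is 0.0286. Of 16 such tests, 10 reached it (Benjamini-Hochberg adjusted p = 0.0457). Reaching it means only that the 4 and 4 libraries did not overlap. How many ratios of other genes do so was not counted. Of single genes, 19.2% were separate in FAP DKO against WT and 21.2% in Misc DKO against WT. Between FAP and Misc the shares were 40.0% in WT and 27.8% in DKO. Col6a6 counts per 100 Col6a3 counts were 9.84, 7.15, 7.94 and 6.7 in FAP DKO and 13, 14.7, 15.3 and 14 in FAP WT. The Misc values were 3.35, 2.02, 2.26 and 1.76 with DKO against 6.54, 9.84, 9.21 and 8.07 with WT. The groups were separate in both populations, with log2 differences of −0.86 in FAP and −1.86 in Misc (exact permutation p = 0.0286 each). In FAP the ratio was thus lower in every DKO library than in every WT library, while Col6a6 alone did not pass the test over all genes. These tests are not alike, as 1 adjusts over 16 ratios and the other over 14179 genes. The ratio was also higher in FAP than in Misc, by 0.77 in WT and 1.78 in DKO (exact permutation p = 0.0286 each).

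Col6a5 counts per 100 Col6a3 counts were 0.531, 0.36, 0.285 and 0.211 in Misc DKO and 0.693, 1.23, 0.757 and 1.05 in Misc WT, a log2 difference of −1.44 (exact permutation p = 0.0286). The FAP values were 1.56, 2.4, 0.891 and 0.981 with DKO against 2.33, 2.25, 2.55 and 2.25 with WT. DKO replicate 2 lay among the WT libraries, and the difference of −0.80 did not pass (exact permutation p = 0.114, adjusted 0.152). FAP exceeded Misc in this ratio by 1.36 in WT and 2.01 in DKO (exact permutation p = 0.0286 each). Among the classical chains, Col6a2 counts per 100 Col6a1 counts were 84.2 to 90.7 in FAP WT and 75.5 to 77.1 in Misc WT, a log2 difference of 0.19. In DKO they were 85.6 to 88.6 in FAP and 76.6 to 82.5 in Misc, a difference of 0.15 (exact permutation p = 0.0286 for both). Col6a3 counts per 100 Col6a1 counts in FAP were 79.5 to 89.3 with DKO against 69 to 78.6 with WT, a log2 difference of 0.15 (exact permutation p = 0.0286). With FAP and Misc libraries paired by number, 4 pairs are too few for an exact permutation test to reach the threshold.

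In SMP the ratios were not tested, as 2 libraries a group allow no p below 0.333. Col6a3 counts per 100 Col6a1 counts were 38.4 and 44.6 in SMP DKO and 20.4 and 22.8 in SMP WT, so both DKO libraries were above both WT libraries. The groups were separate in the other ratios given here as well. Of single genes, 55.7% were separate in SMP in either direction, and the share among ratios of other genes was not counted. Col6a6 counts per 100 Col6a3 counts were 4.7 and 7.41 with DKO against 4.01 and 2.4 with WT. Col6a5 counts per 100 Col6a3 counts were 0.878 and 1.31 with DKO against 2.75 and 2.49 with WT, which is the opposite order. Col6a2 counts per 100 Col6a1 counts were 50.3 and 62.6 with DKO against 47.5 and 45.7 with WT. These ratios give the proportions of the chains in each library and not their levels.

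Expressed per kilobase, Col6a6 was 12.7% to 14.6% of the summed long-chain RNA (Col6a3, Col6a5 and Col6a6) in FAP WT and 7.09% to 10% in FAP DKO. In Misc its share was 6.95% to 10.1% in WT and 1.98% to 3.69% in DKO, and in SMP it was 4.29% and 2.62% in WT and 5.09% and 7.75% in DKO. Col6a3 supplied the rest almost alone, from 83.1% in FAP WT replicate 3 to 97.8% in Misc DKO replicate 4. Col6a5 gave 2.05% to 2.3% in FAP WT and 0.224% to 0.553% in Misc DKO.

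**Figure D4:**
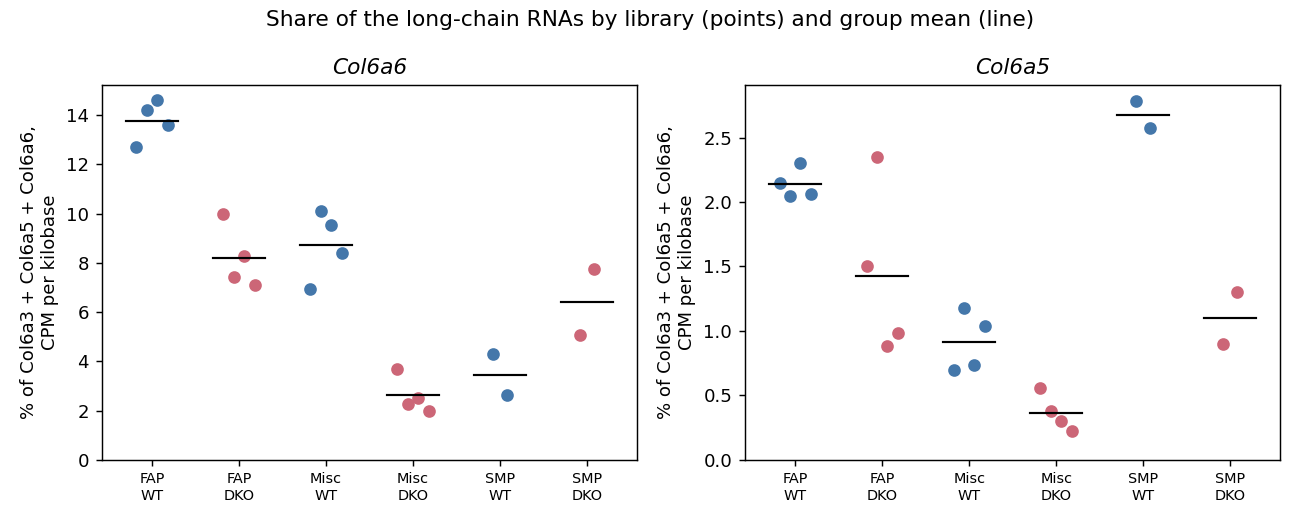
Share of Col6a6 (left) and Col6a5 (right) in the summed CPM per kilobase of Col6a3, Col6a5 and Col6a6; points are libraries, blue for WT and red for DKO, and the line is the group mean. The Col6a6 share lies at 12.7% to 14.6% in FAP WT and at 1.98% to 3.69% in Misc DKO.

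Receptors for collagen VI were read from a list of 8 genes, all tested. In FAP 1 was higher and 1 lower in DKO, with a list median log2 fold change of −0.20 against −0.01 over all genes. In Misc 1 was higher and 3 lower (median −0.18 against 0.01), and in SMP 1 was higher and 3 lower (median −0.0 against 0.01). Over all genes, 5.58% were called higher and 5.14% lower in FAP, 9.15% and 9.55% in Misc, and 11.8% and 11.2% in SMP. The same shares belong beside the counts of the lists below. Cspg4, the NG2 proteoglycan that binds collagen VI, was lower in DKO in all 3 populations. It was at 37.6, 39, 36 and 30.2 CPM in FAP DKO and at 86.3, 64.3, 66.9 and 81.5 in FAP WT. The Misc libraries had 45.3, 33.3, 34.5 and 33.7 CPM with DKO and 89.3, 76.1, 99.7 and 86.8 with WT. In SMP it was at 20 and 24.4 CPM in DKO and at 30.2 and 34.2 in WT. No DKO library reached the lowest WT library of its population. In either direction, 19.2% of all genes were separate in FAP, 21.2% in Misc and 55.7% in SMP. The log2 fold changes of Cspg4 were −1.07 ± 0.12, −1.26 ± 0.12 and −0.54 ± 0.18 (edgeR adjusted p = 2e-06, 9.6e-08 and 0.037). The SMP call was lost without DKO replicate 1 (−0.41, adjusted p = 0.2), without either WT library (0.059 and 0.15) and with only the SMP libraries in the fit (0.13).

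Cspg4 also marks pericytes. The sum of 6 pericyte and smooth muscle markers, Cspg4 included, was 381 to 451 CPM with DKO against 367 to 486 with WT in FAP, 492 to 532 against 514 to 646 in Misc, and 484 to 642 against 743 to 802 in SMP. In FAP and Misc this sum was mostly Pdgfrb, which averaged 363 CPM with DKO against 304 with WT in FAP and 411 against 400 in Misc. Rgs5, Myh11 and Acta2 averaged lower with DKO in each population, and Kcnj8 averaged at most 5.14 CPM in any group. Rgs5 averaged 2.96 CPM with DKO against 9.32 with WT in FAP, 2.08 against 5.46 in Misc and 28.1 against 78.8 in SMP. Its groups did not overlap in Misc and SMP, where 21.2% and 55.7% of all genes were separate. Myh11 averaged 5.74 against 11.9, 7.55 against 15.6 and 135 against 241 CPM, with no overlap in SMP. Acta2 averaged 7.87 against 13, 46.4 against 60.7 and 303 against 353 CPM, with overlap in each population. The part of pericytes in the Cspg4 values was not tested.

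The anthrax toxin receptors, which bind collagen VI, divided the populations. Antxr2 was higher in FAP than in Misc in WT, at 714 ± 41.3 against 247 ± 27 CPM (SD, n = 4 each; log2 difference 1.53, edgeR adjusted p = 3.8e-11). Antxr1 was higher in Misc, at 1332 ± 110 against 562 ± 22.5 CPM (log2 difference −1.24 for FAP over Misc, edgeR adjusted p = 6.9e-10). With DKO, Antxr1 was lower in Misc (log2 fold change −0.38, edgeR adjusted p = 0.011) and Antxr2 in SMP (−0.44, adjusted p = 0.045), a call lost in 7 of 10 alternatives. Antxr2 in FAP was at −0.33 (edgeR adjusted p = 0.051). Of the collagen-binding integrins, Itga1 was higher in FAP DKO (0.72 ± 0.14, edgeR adjusted p = 0.0011). Itga10 was higher in Misc DKO (1.15 ± 0.10, adjusted p = 2.3e-08) and lower in SMP DKO (−0.89 ± 0.15, 0.00025), and its effects differed (interaction 2.04 ± 0.18, adjusted p = 1.4e-07). Itga2 was lower in Misc DKO (−1.08 ± 0.23, adjusted p = 0.0029). Itga11 was higher in SMP DKO (1.48 ± 0.38, 0.011), at 11.5 and 49.9 CPM against 11 and 10.9 in WT. Without DKO replicate 2 it was 0.06 (adjusted p = 0.88).

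Matrix partners were 10 genes whose products bind collagen VI or share its matrix, 9 of them tested. In Misc 5 were lower and 1 higher in DKO, with a list median of −0.52 against 0.01 over all genes. Matn3, Matn4 and Matn2, which encode matrilins, adaptors that bind collagen VI, changed by −1.53 ± 0.23, −0.96 ± 0.26 and −0.87 ± 0.11 (edgeR adjusted p = 8e-05, 0.015 and 7e-06). The Matn4 call was lost without DKO replicate 2 (adjusted p = 0.051). Tnxb, tenascin-X, was lower at −0.64, and Vwa1, the collagen VI binding protein WARP, at −0.52 (edgeR adjusted p = 0.0022 and 0.0032). Fn1, fibronectin, was the gene that rose, from 2660 ± 194 to 6365 ± 874 CPM (SD, n = 4 each; log2 fold change 1.26 ± 0.14, edgeR adjusted p = 4.3e-07). In FAP 1 was higher and 1 lower (median 0.12 against −0.01). Bgn, the proteoglycan biglycan that organises collagen VI, rose from 1980 ± 126 to 3640 ± 395 CPM (0.88 ± 0.14, edgeR adjusted p = 0.00024), and Tnxb fell (−0.50 ± 0.14, adjusted p = 0.022). The Tnxb call was lost without DKO replicate 2 or 4 or WT replicate 1 or 4 (adjusted p from 0.06 to 0.08). In SMP 3 were higher and 0 lower (median 0.32 against 0.01), namely Matn2 at 0.69, Hspg2, perlecan, at 0.65 and Bgn at 0.58 (edgeR adjusted p = 0.0045, 0.012 and 0.042). Bgn was at 635 and 1235 CPM in DKO and at 606 and 644 in WT, so replicate 1 lay inside the WT range, and without replicate 2 the value was 0.01 (adjusted p = 0.98). Of all genes, 55.7% had separate groups in SMP in either direction. Both DKO libraries were above both WT libraries for Matn2 (83.4 and 97.2 against 50.7 and 61.1 CPM) and Hspg2 (1240 and 1255 against 845 and 747 CPM). Their calls were lost without WT replicate 1 (Matn2, 0.56, adjusted p = 0.071) or WT replicate 2 (Hspg2, 0.54, 0.11). Matn2 and Fn1 differed in their DKO effect between FAP and Misc, by 1.16 and −1.16 (edgeR adjusted p = 0.00011 and 0.0008).

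**Figure D5:**
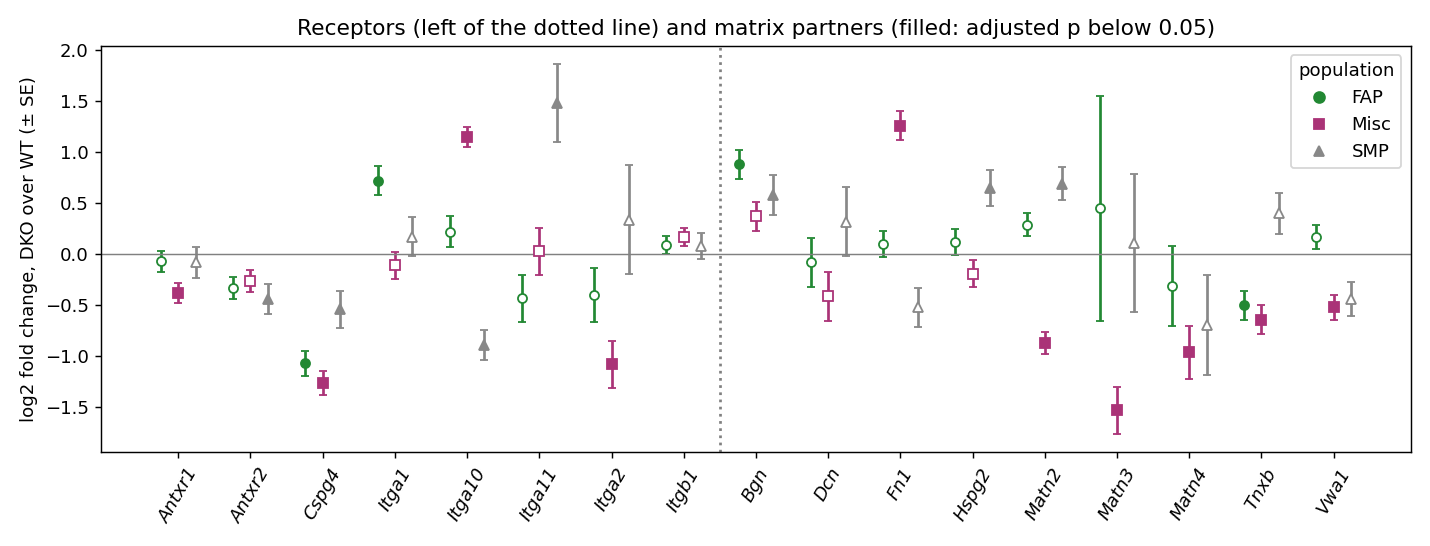
Log2 fold change of DKO over WT (± SE) for 8 receptor genes, left of the dotted line, and 9 matrix partner genes, right of it, in FAP, Misc and SMP; filled symbols passed edgeR's test. Cspg4 is lower in all 3 populations, and 5 matrix partners are lower in Misc.

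Genes for folding, modification and export of collagen chains numbered 18, of which 17 were tested. In FAP 3 were higher and 1 lower (median 0.11 against −0.01 over all genes), in Misc 3 higher and 5 lower (−0.10 against 0.01), and in SMP 4 higher and 0 lower (0.15 against 0.01). P4ha3, a prolyl 4-hydroxylase subunit, was higher in DKO in all 3, by 1.91 ± 0.30, 1.57 ± 0.30 and 2.11 ± 0.67 (edgeR adjusted p = 0.00026, 0.00075 and 0.029). In SMP it was at 1.05 and 4.59 CPM in DKO and at 0.892 and 0.351 in WT. Without DKO replicate 2 the SMP value was 0.72 (adjusted p = 0.61), and without WT replicate 1 or 2 it was 2.92 (0.054) or 1.59 (0.17). Plod2, a lysyl hydroxylase, was higher in FAP and Misc by 0.75 and 0.71, and Plod1 lower by −0.59 and −0.49 (edgeR adjusted p = 0.00034, 0.00025, 0.0061 and 0.013). The Plod1 call in Misc was lost without DKO replicate 2 (adjusted p = 0.054). P3h2, a prolyl 3-hydroxylase, was 1.38 higher in FAP DKO (adjusted p = 2e-06) and its effect exceeded that in Misc by 1.77 (edgeR adjusted p = 5.5e-06). Serpinh1, the collagen chaperone HSP47, was higher in SMP by 0.70 (edgeR adjusted p = 0.004). Of 5 proteases that act on the chains, 0 passed in FAP. In Misc Mmp2 was higher by 0.77 and Mmp14 by 0.56, and Mmp11 lower at −0.67 (edgeR adjusted p = 0.0019, 0.00042 and 0.042), the last lost in 8 of 14 alternatives. In SMP Mmp9 was called higher at a mean of 1.74 CPM and Mmp2 lower at −0.75 (edgeR adjusted p = 0.0026 and 0.024). Mmp2 was at 299 and 750 CPM in DKO and at 921 and 842 in WT, and it was −0.25 without DKO replicate 1 (adjusted p = 0.28) and −1.57 without replicate 2 (1.2e-06). Without DKO replicate 2 the Mmp9 call was lost (adjusted p = 0.079).

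Among the 39 other collagen genes, 36 were tested. In FAP 5 were higher and 6 lower in DKO, in Misc 7 and 13, and in SMP 6 and 6. The medians were 0.04, 0.00 and −0.39, against −0.01, 0.01 and 0.01 over all genes. In Misc the largest changes among called genes were in the basement membrane chains Col4a4 (−2.44 ± 0.29) and Col4a3 (−1.97 ± 0.30), the fibril-associated Col22a1 (2.08 ± 0.27) and Col4a6 (−1.85 ± 0.27), with edgeR adjusted p = 2e-05, 0.0002, 4.5e-05 and 5.4e-05. In FAP the largest called changes were those of Col8a1 (2.24 ± 0.14, adjusted p = 1.1e-10), Col4a4 (−1.90 ± 0.27, 0.00024), Col22a1 (1.75 ± 0.37, 0.0055) and Col9a2 (−1.63 ± 0.34, 0.0022), all by edgeR. Col22a1 in FAP was 2.40 without WT replicate 1, and the Col9a2 call was lost with counts thinned to the smallest library (adjusted p = 0.079). In these libraries Col6a6 and Col6a5 therefore fell in Misc beside 13 other collagen genes that were lower.

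The genes whose profile over the 20 libraries was most like each chain were found by the root-mean-square difference of centred log2 CPM among 10236 genes. Nearest to Col6a1 were Tmed3 and Arsa (0.15 each) and Tspan9 (0.18), and to Col6a2 Lamb1 (0.18), Eps8 and Pcolce (0.20 each). For Col6a3 they were Cpxm1 (0.28), Tmem119 (0.30) and Lamb1 (0.31), with Col6a2 next at 0.33. Col6a5 lay closest to Rtn4rl1 (0.47), Smim1 (0.50) and Adamts12 (0.51), and Col6a6 to Agtr1a (0.39), Nov (0.46) and Pcolce2 (0.47). The 2 neighbours Col6a5 and Col6a6 differed from each other by 0.85, more than the 0.30 between Col6a1 and Col6a2. The libraries share the contrast of SMP with the other populations, and the values are descriptions.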

How the data were processed

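RNA was measured in 20 libraries of FAP, Misc and SMP, DKO and WT. The authors deposited raw counts per gene and library. Reads were mapped with OSA to mm10 with RefSeq annotation, per the series design text. The submitters' processing notes list DESeq2 with no version. Counting and strand settings were not given in the sources used here. Of 24393 genes, 24312 matched RefSeq by Entrez identifier and 52 damaged symbols were restored. Genes passing edgeR's filterByExpr (minimum count 10, minimum total 15) numbered 14179, and 5031 had no count. All 6 groups were fitted together in edgeR 4.0.16 (R 4.3.3; TMM, robust quasi-likelihood, no block), with Benjamini-Hochberg adjustment over all tested genes, a threshold of 0.05 and SE as the absolute log2 fold change over the square root of F. CPM uses TMM-scaled totals. Levels per kilobase use the longest GENCODE M21 basic transcript (4.1, 4.65, 10.11, 9.29 and 8.78 kb for Col6a1, Col6a2, Col6a3, Col6a5 and Col6a6), so they assume that transcript. Permutation tests used scipy 1.17.1. The model and the ratio tests were tested on simulated data.

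The members and gene lists were chosen with earlier results of these data known. Named genes were all members, Col6a4, the 3 genes nearest each member (mean CPM of at least 5), up to 4 called genes per partner list and comparison by size, Cspg4, Antxr1 and Antxr2, and Des and Syne1. Tnxb and Vwa1 in Misc were named beyond this rule, after their values were seen. Same-numbered libraries of FAP and Misc deviated together. Their correlations were 0.18 to 0.34 in DKO and 0.18 to 0.23 in WT, with other numbers at −0.18 to 0.06. The labels do not state a pairing. The main model and the main ratio tests took FAP and Misc libraries as unpaired, and a pairing entered only the alternatives. DKO and WT were not paired. Same-numbered libraries of SMP and FAP correlated at −0.26 to −0.08 in DKO (other numbers −0.14 to 0.26) and 0.03 to 0.06 in WT (−0.1 to 0.1). For SMP and Misc the values were −0.07 in DKO (0 to 0.07) and −0.04 to 0.04 in WT (−0.15 to 0.15). SMP numbers are not known to match those of FAP or Misc, so these values do not decide whether the libraries were paired. Alternatives were DESeq2 1.42.0 and its size factors, no filter, only the compared groups, replicate blocks, thinned counts, single libraries left out, other pseudocounts and lengths, and Pearson's r. No per-sample column was left out. Depths differ by library, from 5.83 to 17.73 M counts, and limit the precision of Col6a5 in SMP most.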

Additional observations from a re-analysis of the deposited data

Results flagged for a closer look

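Among the 4-library groups, 36 were looked at for a single library set apart from the rest, where chance gives about 1 in 20. The log2 ratio of Col6a2 to Col6a1 was −0.22 in FAP DKO replicate 4, against −0.17 to −0.18 in the other FAP DKO libraries. In Misc WT it was −0.38 in replicate 1, against −0.40 in the others. Both gaps are small beside the difference of FAP from Misc. The DKO effect on Col6a6 differed between populations by edgeR's interaction test, by −2.58 between FAP and SMP and by −3.58 between Misc and SMP.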

How the results depend on the processing

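Of 405 values of single chains under other settings, 393 kept their direction and side of the threshold, and of 500 values with 1 library left out, 462 did. All 32 ratio values under other pseudocounts did so too, and the order per kilobase was the same with coding length and, added after seeing the data, merged exons of all transcripts. With only the compared groups in the fit, the chains called were 1 in FAP DKO against WT, 0 in SMP DKO against WT and 1 for the DKO effect of FAP against Misc. By Pearson's r in place of the root-mean-square difference, 0, 0, 0, 0 and 1 of the 3 nearest genes were shared for Col6a1, Col6a2, Col6a3, Col6a5 and Col6a6. The cause of these changes was not tested. Added after seeing the data, single libraries were also left out for the partner lists. In SMP DKO against WT the genes called then ranged from 1 to 3 for receptors, 1 to 5 for matrix partners, 1 to 5 for folding genes and 1 to 2 for proteases. Matrix partners in FAP ranged from 1 to 2 and folding genes in Misc from 4 to 8. Depth limits Col6a5 in SMP, which had the fewest counts.

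With a replicate block within genotype, the chains called for the DKO effect of FAP against SMP fell to 0, and the Col6a5 value turned from −0.23 to 0.10. With blocks by number, Col6a5 in Misc against SMP in DKO was also called, at 1.72. No other call of a chain changed with either block. With the replicate block, ratio values stayed at 0.19 and 0.15 (Col6a2 to Col6a1, FAP against Misc in WT and DKO), 0.15 (Col6a3 to Col6a1, FAP DKO against WT), −1.44, 1.36 and 2.01 (Col6a5 to Col6a3) and −0.86, −1.86, 0.77 and 1.78 (Col6a6 to Col6a3), with exact permutation adjusted p = 0.182, since 4 pairs are too few to pass. As DKO and WT libraries share only a number, the block there is no pairing of the design. Same-numbered SMP libraries did not deviate together with those of FAP or Misc, but their numbers are not known to match. By the order of the letters in the sample names, SMP libraries lie beside FAP and Misc libraries of other numbers. The blocks by number thus could not decide whether SMP libraries were paired with the others.

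With single libraries left out, the chains called ranged from 1 to 2 in Misc DKO against WT, 1 to 3 in SMP DKO against WT, 4 to 5 in Misc against SMP in DKO, 0 to 3 for the DKO effect of FAP against SMP and 1 to 3 for that of Misc against SMP. The ratio differences ranged from 0.01 to 0.04, 0.03 to 0.07, 0.17 to 0.20 and 0.14 to 0.17 for Col6a2 to Col6a1 (FAP DKO against WT, Misc DKO against WT, FAP against Misc in WT, and in DKO). In the same order they ranged from 0.11 to 0.18, −0.03 to 0.12, −0.02 to 0.10 and 0.07 to 0.22 for Col6a3 to Col6a1, from −1.07 to −0.60, −1.67 to −1.24, 1.23 to 1.50 and 1.73 to 2.23 for Col6a5 to Col6a3, and from −0.97 to −0.79, −2.05 to −1.74, 0.66 to 0.86 and 1.65 to 1.96 for Col6a6 to Col6a3. With 3 against 4 libraries the smallest exact permutation p is 0.0571, so none could pass. Col6a3 to Col6a1 turned to −0.03 without Misc DKO replicate 2 and −0.01 without Misc WT replicate 4 (Misc DKO against WT), and to −0.02 without Misc WT replicate 4 (FAP against Misc in WT).

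Chains turned their sign as follows. In FAP DKO against WT, Col6a1 was −0.01, −0.03 and −0.00 without FAP DKO replicate 2, FAP WT replicate 3 and FAP WT replicate 4, and Col6a2 −0.02 without FAP WT replicate 3. In SMP DKO against WT, the range with 1 library left out was −0.67 to 0.28 for Col6a1 and −1.41 to 0.33 for Col6a5 (lowest without DKO replicate 2, highest without replicate 1) and −0.57 to 0.70 for Col6a2 (likewise), and Col6a5 was 0.05 with counts thinned to the smallest library. For the DKO effect of FAP against Misc, Col6a1 ranged from −0.13 (without Misc DKO replicate 2) to 0.02 (without replicate 1), Col6a2 from −0.18 to 0.00 (same libraries), and Col6a3 −0.01, −0.05 and −0.01 without FAP DKO replicate 3, FAP WT replicate 3 and Misc WT replicate 1. For FAP against SMP, without SMP DKO replicate 2 and then 1, Col6a1 was 0.69 and −0.27, Col6a2 0.59 and −0.67, and Col6a5 0.87 and −0.87. For Misc against SMP, in the same order, Col6a1 was 0.76 and −0.19, Col6a2 0.71 and −0.56, and Col6a5 0.15 and −1.59, and without SMP WT replicate 2 Col6a2 was 0.01. Of the interaction values with an SMP DKO library left out, Col6a3 passed without replicate 1, at −1.17 (FAP against SMP) and −1.20 (Misc against SMP).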
